A study of Camellia sinensis with 12 samples.

Results

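The second leaf below the bud (sL2) was compared with the first leaf below the bud (sL1) for the conserved miRNAs of Xinyang Maojian (XYMJ) tea plants, Camellia sinensis. The comparison took in 6 of the 12 libraries of the series, 3 of sL2 and 3 of sL1, and every miRNA ID whose counts over all 12 libraries came to 10 or more, which held for 222 of the 650 listed IDs. The other libraries came from buds (sBud) and stems (sS1). The study asked which miRNAs differ between tissues and stages of the developing shoot. The sL2 samples were the older leaf and the sL1 samples the younger leaf of the same untreated, field-grown cultivar. The samples were collected from many plants of one age, and how many plants went into each sample is not given in the sources used here. The group of a library was read from its title and group tag, because the tissue field reads Leaf for all 12 libraries, stems included. The tables hold miRNA counts and no marker genes of a leaf, so the labelled tissues could not be checked against markers. In whole leaves, a change in the makeup of cell types and a change in the amount of a miRNA per cell cannot be told apart.

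Plant miRNAs are short RNAs that are cut from hairpin transcripts and that guide ARGONAUTE proteins to mRNAs with a nearly complementary site, which are then cleaved or translated less. Several families are shared by most land plants, and in Arabidopsis their best known targets are transcription factors that set when leaf cells stop dividing, which side of the leaf is the upper one, and how a tissue answers auxin. A family here is a set of IDs with the same family name and different member numbers, such as MIR159-1 and MIR159-2, and the prefix cas- that the files put before each ID is left out. No sequences came with the counts, so how far members of a family differ in sequence was not analysed here, and the rule for reads that fit several members is not given in the sources used here. The division of counts among members is therefore less certain than the summed counts of a family, which are given in the text for several of the families.

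The libraries held 640623, 559217 and 647707 counts in sL2 and 387379, 540999 and 387015 counts in sL1, so all sL2 libraries were the deeper ones. The 5 most abundant IDs of each library took 79.8% to 80.1% of its counts in sL2 and 84.0% to 85.1% in sL1. A library had counts for 255 to 279 IDs in sL2 and for 225 to 240 IDs in sL1. Across the 222 IDs, log2(CPM + 1) values had a median Pearson correlation of 0.959 between sL2 libraries, 0.956 between sL1 libraries and 0.811 between sL2 and sL1 libraries. The sL1 libraries were closer to those of the stem than to those of sL2, with a median of 0.950 that nearly equals the 0.956 within sL1 and the 0.953 within the stem. The sL1 and stem libraries were thus about as alike as replicates of 1 tissue, and every fold change below rests on the sL1 label, which the counts could not check. The study, in contrast, reported few differentially expressed miRNAs between these leaves. By its criterion, which leaves p unadjusted, 90 of the 222 IDs passed here with edgeR. By qRT-PCR the study placed csn-miR159-2 and csn-miR319-2 in both leaves, whereas MIR319-2 had no count in sL1 here. These IDs were matched by family and member number only. The part of depth and of this likeness to the stem in the results was not tested. An ID could pass the filter through 1 tissue alone, and the 428 IDs that did not pass had at most 9 counts each over the 12 libraries and together took 0.0106% to 0.0178% of the counts of a leaf library.

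A miRNA was called differentially expressed (a DEM) where edgeR's quasi-likelihood test gave an adjusted p below 0.05, by the method of Benjamini and Hochberg across the tested IDs, together with more than a 1-log2-unit change. Fold changes are sL2 over sL1, so that a positive log2 value means a higher level in sL2. Of the 222 tested IDs, 43 rose (19.4%) and 37 fell (16.7%) in sL2, 80 in all (36.0%). The fitted log2 fold change was above 4 for 22 of those that rose and below -4 for 13 of those that fell, IDs without a count in 1 of the leaves included. The libraries of the leaves did not overlap for 118 of the 222 IDs (53.2%), the background for each remark on overlap below. Calls were made at all levels of abundance, but less often among scarce IDs. The called share was 14.1% under 10 CPM and 51.4% at 1000 CPM or more. Among the 37 IDs with 1000 CPM or more on average, 10 rose and 9 fell, and among the 71 IDs under 10 CPM, 4 rose and 6 fell. CPM is the count of an ID relative to its library total after TMM scaling by edgeR. When each of the 6 libraries was left out in turn, 59 of the 80 IDs were called every time and 21 were lost at least in 1 fit, and those named below are marked as such. A printed fold change of a called ID that moved by more than 1.5 times without 1 library is given with its value without that library.

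**Figure D1:**
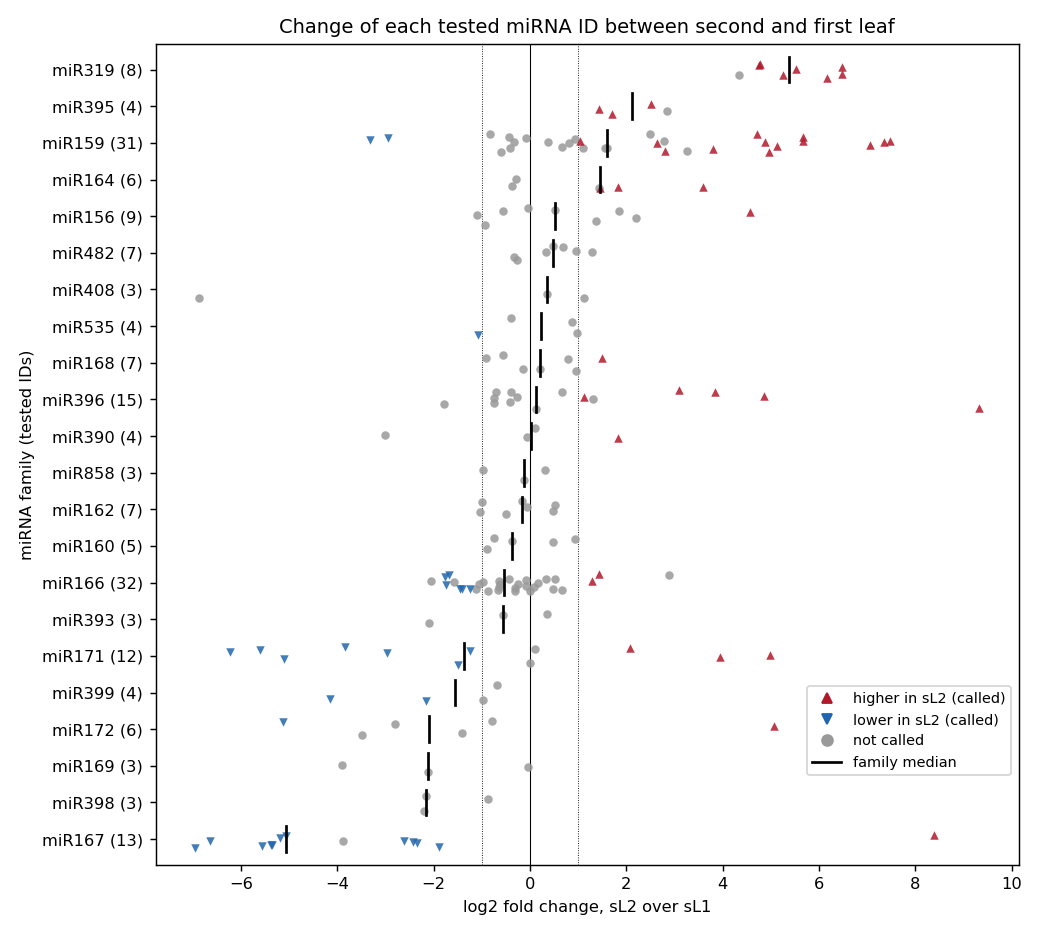
Fitted log2 fold change of each tested ID, sL2 over sL1 (x axis), in the 22 families with 3 or more tested IDs (y axis, number of tested IDs in brackets). Upward triangles are IDs called higher in sL2, downward triangles IDs called lower in sL2, grey dots IDs not called, short vertical lines family medians, and dotted lines a log2 fold change of 1 in either direction. The 8 miR319 members all lie right of 0 and 12 of the 13 miR167 members lie left of it, while miR159, miR166, miR171 and miR396 spread over both sides.

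The families that act on leaf growth and shape held most of the miRNAs that rose. In Arabidopsis miR319 targets TCP mRNAs, miR396 GRF mRNAs, miR159 GAMYB-like MYB mRNAs and miR164 CUC-type NAC mRNAs. Of the 60 tested IDs of these 4 families, 28 rose and 2 fell in sL2 (50% called, against 36.0% of all tested IDs). The median log2 fold change was 1.59, against -0.11 over all 222 IDs. With the 10 IDs of the list that had no count in 1 of the tissues set at their lower bound, the median was 1.24.

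The miR319 family, whose TCP targets slow cell division in the leaf margin and blade, rose as a whole. Of its 8 tested members, 7 were called higher in sL2 and none lower (87.5% called, against 36.0% of all tested IDs). MIR319-1, the most abundant member, had 772, 829 and 975 CPM in sL2 and 14.4, 37.6 and 42.6 CPM in sL1. All sL2 libraries lay far above all sL1 libraries, with a log2 fold change of 4.76 (SE 0.39, edgeR adjusted p = 2.91e-07). MIR319-6 had 219, 162 and 172 CPM in sL2 and 2.40, 7.91 and 2.84 CPM in sL1 (log2 fold change 5.25, SE 0.56, edgeR adjusted p = 4.40e-06, and 6.0 without sL1 replicate 2). MIR319-5 followed it closely, with 214, 118 and 186 CPM in sL2 and 2.40, 11.9 and 2.84 CPM in sL1. For these members too, the highest sL1 library stayed below the lowest sL2 library.

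Several miR319 members were counted in sL2 alone. MIR319-2 had 10, 10 and 13 counts in the sL2 libraries and none in sL1. MIR319-3 had 14, 11 and 16 counts in sL2 and none in sL1, and MIR319-8 had 16, 12 and 13 counts in sL2 and none in sL1. Against a floor of 3 counts per library, which a count of 0 allows, MIR319-2 was at least 2.25-fold higher, MIR319-3 at least 2.79-fold higher and MIR319-8 at least 2.80-fold higher in sL2. MIR319-9 had 32, 24 and 40 counts in sL2 and 0, 0 and 1 in sL1, a ratio of 60.3 in normalised counts with a 95% exact counting interval of 10.6 to 2405. The ratio was 40.6 without sL1 replicate 1 and 36.3 without sL1 replicate 2, and without sL1 replicate 3, which held the only sL1 count, MIR319-9 was at least 7.17-fold higher. MIR319-7, with 2, 3 and 4 counts in sL2 and none in sL1, was not called (edgeR adjusted p = 0.0547), and no fold change is given for it because the floor lies above its level. None of the 8 members departed from the change of the family in the test of member usage described below, and the F test of the family gave an adjusted p of 0.447. Summed, the family reached 1317, 1200 and 1455 CPM in sL2 and 19.2, 57.3 and 51.1 CPM in sL1, a log2 fold change of 4.95 (SE 0.39, edgeR adjusted p = 6.10e-07).

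In the miR396 family minor members rose, while the main member was not called. The GRF targets of miR396 promote cell division in young leaves of Arabidopsis. MIR396-11, which took 79.1% ± 0.932 of the family's counts in sL2 and 92.9% ± 0.227 in sL1 (SD, n = 3 each), had 38293, 34380 and 31171 CPM in sL2 and 42655, 94148 and 38538 CPM in sL1. The sL1 libraries were all higher, sL1 replicate 3 by very little, and the log2 fold change of -0.76 (SE 0.28, edgeR adjusted p = 0.0461) did not reach the fold required. MIR396-21 rose, with 2062, 1711 and 1373 CPM in sL2 and 130, 342 and 128 CPM in sL1 (log2 fold change 3.09, SE 0.60, edgeR adjusted p = 0.000931, and 3.72 without sL1 replicate 2). MIR396-13 rose as well, with 149, 183 and 125 CPM in sL2 and 4.81, 9.88 and 17.0 CPM in sL1. Both were called whichever library was left out. MIR396-3, the member next in abundance to MIR396-11, had 6294, 5049 and 4998 CPM in sL2 and 1416, 4891 and 1175 CPM in sL1, and its call (log2 fold change 1.13, edgeR adjusted p = 0.0357) was lost without sL1 replicate 1 (0.84), sL1 replicate 3 (0.89), sL2 replicate 1 (0.89) or sL2 replicate 3 (1.18), while without sL1 replicate 2 the log2 fold change was 2.05.

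The members with the largest fitted values of the family moved most when sL2 replicate 2 was left out. MIR396-19 had 4, 949 and 111 counts in sL2 and 7, 14 and 3 counts in sL1, so the libraries of the tissues overlapped. Its log2 fold change was 4.85 and fell to 1.98 without sL2 replicate 2, where the call was lost (edgeR adjusted p = 0.109). MIR396-12 had 0, 239 and 58 counts in sL2 and none in sL1, at least 20.5-fold higher in the mean and at least 5.70-fold higher without sL2 replicate 2, where it was still called (edgeR adjusted p = 0.0227). In the 15 tested members, 5 rose and none fell (33.3% called, against 36.0% of all tested IDs). The summed counts of miR396 did not pass the test, with a log2 fold change of -0.52 (SE 0.29, edgeR adjusted p = 0.189) that turned to 0.99 when the 5 most abundant IDs, MIR396-11 among them, were left out and to 0.17 with scaling factors computed from the family sums.

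The miR159 family, whose MYB targets act in gibberellin responses, in growth and in programmed cell death in Arabidopsis, was the most abundant one in sL2. It took 51.5% ± 2.10 of the counts in sL2 and 34.6% ± 3.41 in sL1 (SD, n = 3 each). Of 31 tested members, 13 rose and 2 fell (48.4% called, against 36.0% of all tested IDs). The median log2 fold change was 1.61, or 1.10 with the 5 members that had no count in sL1 at their bound. In the 6 fits without 1 library, the call of MIR159-21 held in 1, that of MIR159-16 in 2 and that of MIR159-24 in 3. MIR159-16 and MIR159-28 had no count in sL1, and their lower bounds fell to 0.61-fold and 0.84-fold when a library was left out. MIR159-2 had 187586, 159898 and 189750 CPM in sL2 and 2623, 4019 and 3902 CPM in sL1. It ranked among the most abundant miRNAs of sL2 and was 50.9-fold higher there, with no overlap (edgeR adjusted p = 3.26e-09). MIR159-1, the leading member in both leaves, had 264727, 262136 and 237725 CPM in sL2 and 345306, 327078 and 347384 CPM in sL1. It lay lower in sL2 in every library, by a log2 fold change of -0.42 (SE 0.09, edgeR adjusted p = 0.00272) that was under the fold required.

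The make-up of the family differed between the leaves. MIR159-1 made up 54.4% ± 2.99 of the miR159 counts in sL2 and 95.5% ± 0.638 in sL1, and MIR159-2 made up 38.2% ± 3.04 in sL2 and 0.989% ± 0.229 in sL1 (SD, n = 3 each). Other members rose too. MIR159-14 had 3607, 6118 and 7430 CPM in sL2 and 72.1, 188 and 73.8 CPM in sL1, a fold change of 50.7 (edgeR adjusted p = 9.62e-07), or 5.67 on the log2 scale and 6.27 without sL1 replicate 2. MIR159-15 had 9203, 5978 and 7494 CPM in sL2 and 361, 712 and 548 CPM in sL1, a log2 fold change of 3.81 (edgeR adjusted p = 4.48e-06). MIR159-45 had 3436, 2707 and 750 CPM in sL2 and 64.9, 61.3 and 108 CPM in sL1, a fold change of 29.6 (edgeR adjusted p = 1.83e-05). Its sL2 replicate 3 was well below the other two, yet still above every sL1 library.

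Low members of miR159 moved in both directions. MIR159-29 rose, with 205, 169 and 295 CPM in sL2 and 2.40, 17.8 and 2.84 CPM in sL1. MIR159-47 fell, with 6.03, 0 and 2.84 CPM in sL2 and 31.3, 37.6 and 25.5 CPM in sL1 (log2 fold change -3.32, SE 0.74, edgeR adjusted p = 0.00247, and -4.39 without sL2 replicate 1). MIR159-37 fell too, with 2, 0 and 2 counts in sL2 and 10, 10 and 2 counts in sL1, and its call was lost without sL2 replicate 2 (log2 fold change -2.53) or sL1 replicate 1 (-2.62). MIR159-38 had 28, 40 and 14 counts in sL2 and none in sL1, and the lower bound of its fold lay between 4.30 and 7.11 when each library was left out in turn. Summed, the family had a log2 fold change of 0.40 (SE 0.06, edgeR adjusted p = 0.000202), under the fold required. It passed that fold, at 1.40, when the 5 most abundant IDs were left out, a group that holds MIR159-1 and MIR159-2, and, at 1.11, with scaling factors computed from the family sums.

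The miR164 family, whose NAC targets mark boundaries and leaf serrations in Arabidopsis, had 6 tested members. Of these, 3 rose and none fell (50% called, against 36.0% of all tested IDs), with a median log2 fold change of 1.44. Summed, the family had a log2 fold change of 0.79 (SE 0.23, edgeR adjusted p = 0.0139), under the fold required with the factors of the IDs. MIR164_2-1 had 1798, 2260 and 2788 CPM in sL2 and 791, 842 and 860 CPM in sL1 (log2 fold change 1.46, SE 0.25, edgeR adjusted p = 0.000351). MIR164-5 had 290, 692 and 894 CPM in sL2 and 19.2, 90.9 and 42.6 CPM in sL1 (log2 fold change 3.59, SE 0.52, edgeR adjusted p = 6.47e-05, and 4.34 without sL1 replicate 2). The libraries of the leaves did not overlap for either. MIR164-2, the main member of sL1 with 62.2% ± 3.77 of the family's counts, made up 29.9% ± 7.11 in sL2 (SD, n = 3 each), where MIR164_2-1 led with 53.2% ± 1.98. MIR164_2-4 was called with overlapping libraries, at 81.5, 160 and 41.2 CPM in sL2 and 21.6, 11.9 and 48.2 CPM in sL1. Its call was lost without sL2 replicate 2 (log2 fold change 1.14), sL1 replicate 1 (1.69) or sL1 replicate 2 (1.45).

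Among the families of auxin signalling, miR167 fell and the others were not called. In Arabidopsis miR167 targets the mRNAs of the activating auxin response factors ARF6 and ARF8, miR160 those of repressing ARFs, and miR393 those of auxin receptors. Of 21 tested IDs of these families, 1 rose and 11 fell in sL2 (57.1% called, against 36.0% of all tested IDs). The median log2 fold change was -2.35, or -1.24 with the 5 IDs without a count in 1 tissue at their bound. All 12 called IDs were miR167 members.

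MIR167_2-2 had 115, 84.6 and 41.2 CPM in sL2 and 6217, 8736 and 9223 CPM in sL1, and was 100.5-fold higher in sL1 (edgeR adjusted p = 1.18e-08). MIR167_2-3 had 217, 113 and 152 CPM in sL2 and 4938, 6680 and 5954 CPM in sL1, a log2 fold change of -5.19 (SE 0.30, edgeR adjusted p = 9.51e-09). MIR167_2-7 had 16.6, 36.2 and 19.9 CPM in sL2 and 998, 650 and 814 CPM in sL1, a log2 fold change of -5.07 (SE 0.37, edgeR adjusted p = 8.26e-08). For each of these members the lowest sL1 library was many times the highest sL2 library. MIR167_2-1 fell less, with 1412, 926 and 977 CPM in sL2 and 4957, 8608 and 4175 CPM in sL1 (log2 fold change -2.42, SE 0.29, edgeR adjusted p = 1.29e-05). As a result MIR167_2-1 made up 72.6% ± 9.22 of the miR167 counts in sL2 and 27.6% ± 7.03 in sL1, while MIR167_2-2 made up 5.08% ± 1.57 in sL2 and 38.4% ± 5.64 in sL1 (SD, n = 3 each).

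Members of the branch numbered MIR167_1 were less abundant, and most of them fell as well. MIR167_1-1 had no count in sL2 and 8, 16 and 12 counts in sL1, at least 6.38-fold lower in sL2. MIR167_1-2 had 6.03, 12.1 and 5.68 CPM in sL2 and 36.1, 47.4 and 39.7 CPM in sL1 (log2 fold change -2.35, SE 0.44, edgeR adjusted p = 0.000650). The only miR167 member called higher, MIR167_1-8, had 0, 137 and 16 counts in sL2 and none in sL1, at least 10.6-fold higher in the mean. Without sL2 replicate 2 that bound was 1.57 and the call was lost (edgeR adjusted p = 0.0613). Of the subfamilies, all 6 tested MIR167_2 members fell, and of the 7 tested MIR167_1 members 5 fell and 1 rose. The summed counts of miR167 were 1827, 1493 and 1244 CPM in sL2 and 17558, 25064 and 20549 CPM in sL1, a log2 fold change of -3.79 (SE 0.23, edgeR adjusted p = 6.54e-08).

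The other auxin families did not pass the test. MIR160-2 had 223, 204 and 227 CPM in sL2 and 438, 243 and 420 CPM in sL1, and although the libraries did not overlap, the log2 fold change of -0.75 (SE 0.31) had an edgeR adjusted p of 0.0693. MIR393-5 had 40.7, 30.2 and 51.1 CPM in sL2 and 48.1, 27.7 and 19.9 CPM in sL1, with overlapping libraries. None of the 5 tested miR160 IDs and none of the 3 tested miR393 IDs were called.

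**Figure D2:**
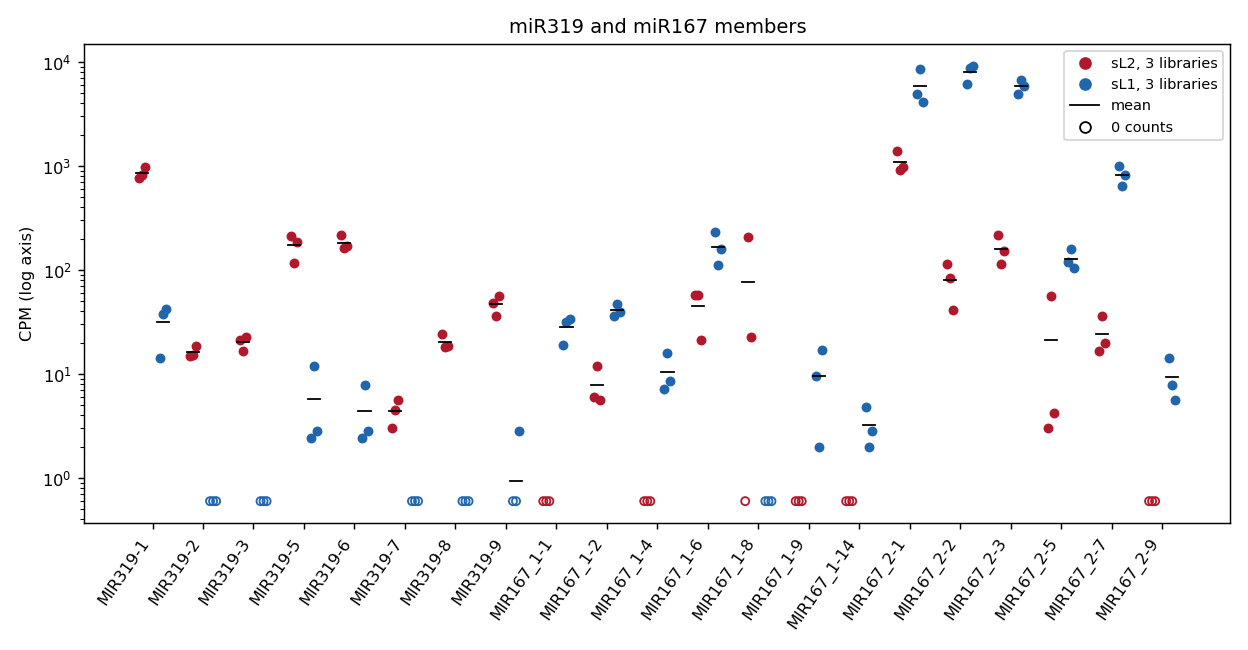
Level of each tested miR319 and miR167 member (x axis) in CPM (y axis, logarithmic) in the 3 sL2 libraries (red) and the 3 sL1 libraries (blue), with the mean as a horizontal line and libraries with 0 counts as open circles at the foot of the plot. All 8 miR319 members are higher in sL2, MIR319-1 at 772 to 975 CPM against 14.4 to 42.6 CPM in sL1, while MIR167_2-2 lies at 41.2 to 115 CPM in sL2 against 6217 to 9223 CPM in sL1.

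Families that act in the shoot and its meristem had more members that fell than members that rose. In Arabidopsis miR171 targets GRAS mRNAs of the HAM and SCL types, miR394 the mRNA of the F-box protein LCR, and miR169 NF-YA mRNAs. Of 17 tested IDs, 3 rose and 8 fell (64.7% called, against 36.0% of all tested IDs), with a median log2 fold change of -1.50. The miR171 family accounted for 3 that rose and 7 that fell among its 12 tested members.

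MIR171_2-8, the leading miR171 member in both leaves, fell, with 1347, 1160 and 1553 CPM in sL2 and 3863, 2465 and 3272 CPM in sL1 (log2 fold change -1.24, SE 0.21, edgeR adjusted p = 0.000240). MIR171_2-1 fell further, with 107, 118 and 102 CPM in sL2 and 1034, 787 and 752 CPM in sL1 (log2 fold change -2.97, SE 0.24, edgeR adjusted p = 2.91e-07). MIR171_2-5 had 3, 1 and 2 counts in sL2 and 73, 60 and 60 counts in sL1, and was 51.2-fold higher in sL1 with a 95% exact counting interval of 23.1 to 141. MIR171_1-17 had 22.6, 4.53 and 2.84 CPM in sL2 and 329, 265 and 457 CPM in sL1. MIR171_1-6 had no count in sL2 and 9, 5 and 7 counts in sL1, at least 3.86-fold lower in sL2. None of these members had overlapping libraries, as was the case for 53.2% of all tested IDs.

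Other members of the same branch rose. MIR171_2-2 had 569, 683 and 858 CPM in sL2 and 52.9, 67.2 and 14.2 CPM in sL1 (log2 fold change 3.94, SE 0.47, edgeR adjusted p = 1.29e-05). MIR171_2-9 had 593, 630 and 934 CPM in sL2 and 156, 176 and 179 CPM in sL1 (log2 fold change 2.08, SE 0.26, edgeR adjusted p = 1.83e-05). MIR171_2-14 had 8, 34 and 23 counts in sL2 and 1, 0 and 0 counts in sL1. The share of MIR171_2-2 in the family's counts was 22.1% ± 1.88 in sL2 and 0.875% ± 0.626 in sL1, and that of MIR171_2-1 was 3.52% ± 0.769 in sL2 and 16.0% ± 2.03 in sL1 (SD, n = 3 each). Summed over members, miR171 had a log2 fold change of -0.76 (SE 0.18, edgeR adjusted p = 0.00431), short of the fold required, or -0.06 with scaling factors computed from the family sums.

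MIR394-1 had 1077, 732 and 877 CPM in sL2 and 3349, 2552 and 3329 CPM in sL1, with no overlap (log2 fold change -1.78, SE 0.21, edgeR adjusted p = 1.29e-05). The other tested member, MIR394-2, was not called and had a log2 fold change of -0.09. The miR394 sum fell, by 1.69 on the log2 scale (SE 0.21, edgeR adjusted p = 3.88e-05). None of the 3 tested miR169 IDs were called, and MIR169_1-2, the most abundant, had 7, 2 and 0 counts in sL2 and 3, 3 and 0 counts in sL1.

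The families of age and phase change were miR156, miR535 and miR172. They had 19 tested IDs, of which 2 rose and 2 fell (21.1% called, against 36.0% of all tested IDs). The median log2 fold change was -0.40. When CPM were scaled by library size alone, 4 rose and 1 fell. In Arabidopsis miR156 targets SPL mRNAs and is high in juvenile shoots, and miR172 targets AP2-type mRNAs and increases as the shoot ages. Within miR172, a pair of members changed places. MIR172-2 had 4.53, 7.55 and 19.9 CPM in sL2 and 493, 308 and 355 CPM in sL1 (log2 fold change -5.13, SE 0.49, edgeR adjusted p = 1.59e-06, and -5.94 without sL2 replicate 3). MIR172-12 had 63, 39 and 73 counts in sL2 and 0, 2 and 1 counts in sL1, a ratio of 36.6 with a 95% exact counting interval of 12.3 to 179 (edgeR adjusted p = 7.87e-05), and 66.3 without sL1 replicate 2. MIR172-2 thus made up 5.83% ± 3.19 of the miR172 counts in sL2 and 72.7% ± 1.59 in sL1, and MIR172-12 49.0% ± 3.85 in sL2 and 0.498% ± 0.461 in sL1 (SD, n = 3 each). The family was scarce, with 118, 83 and 157 counts in sL2 and 277, 220 and 171 counts in sL1, and its sum fell by 1.59 on the log2 scale (SE 0.27, edgeR adjusted p = 0.000526). That call was lost when the scaling factors were computed from the family sums, which gave -0.94.

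MIR156-14 had 10, 51 and 25 counts in sL2 and 2, 0 and 0 counts in sL1, a ratio of 27.0 with a 95% exact counting interval of 7.25 to 226 (edgeR adjusted p = 0.00196). The ratio was 16.3 without sL2 replicate 2 and 16.3 without sL1 replicate 2, and without sL1 replicate 1, which held both sL1 counts, MIR156-14 was at least 5.89-fold higher. It was called in each of these fits. No other of the 9 tested miR156 members was called. MIR156-26, the most abundant of them, had 137, 195 and 146 CPM in sL2 and 113, 101 and 122 CPM in sL1, and its log2 fold change of 0.51 (SE 0.37) had an edgeR adjusted p of 0.294. In miR535, MIR535-7 lay higher in sL2, at 1255, 2097 and 2083 CPM in sL2 and 820, 1105 and 837 CPM in sL1, with a log2 fold change of 0.98 just under the fold required. It passed without sL1 replicate 2 (1.12) or sL2 replicate 1 (1.03), and by DESeq2 (1.07) and with scaling by library size alone (1.18). MIR535-1 fell, with 558, 420 and 375 CPM in sL2 and 572, 1400 and 897 CPM in sL1 (log2 fold change -1.09, edgeR adjusted p = 0.0253). Its nearest libraries almost touched, and the call was lost without sL1 replicate 2 (-0.71), sL1 replicate 3 (-1.04) or sL2 replicate 3 (-0.97).

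The families of leaf polarity, miR166 and miR390, had 36 tested IDs, of which 3 rose and 6 fell (25% called, against 36.0% of all tested IDs). The median log2 fold change was -0.38. In Arabidopsis miR166 restricts HD-ZIP III mRNAs to the upper side of the leaf, and miR390 starts the small RNAs from TAS3 that act against ARF mRNAs on that side. MIR166-4 and MIR166-41 were among the 5 most abundant miRNAs of both leaves. MIR166-41 fell, with 67022, 49122 and 63190 CPM in sL2 and 119749, 140608 and 164208 CPM in sL1 (log2 fold change -1.24, SE 0.15, edgeR adjusted p = 1.29e-05). MIR166-4 had 209613, 167645 and 203073 CPM in sL2 and 240286, 321147 and 332073 CPM in sL1, and its log2 fold change of -0.62 (SE 0.16, edgeR adjusted p = 0.00759) stayed under the fold required. Both were lower in every sL2 library than in any sL1 library.

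MIR166-2 fell, with 5685, 5871 and 8774 CPM in sL2 and 13181, 20450 and 20285 CPM in sL1 (log2 fold change -1.41, SE 0.22, edgeR adjusted p = 0.000109). MIR166-32 rose, with 1772, 2932 and 2201 CPM in sL2 and 1048, 672 and 1127 CPM in sL1 (log2 fold change 1.28, SE 0.27, edgeR adjusted p = 0.00177), and was under the fold required, at 0.95, without sL2 replicate 2. MIR166-22 had 13642, 8702 and 7898 CPM in sL2 and 9964, 12202 and 15353 CPM in sL1, and overlapped. The miR166 family as a whole took 31.2% ± 1.85 of the counts in sL2 and 46.6% ± 3.63 in sL1 (SD, n = 3 each), and its sum had a log2 fold change of -0.76 (SE 0.14, edgeR adjusted p = 0.000794), under the fold required, or -0.08 with scaling factors computed from the family sums. Of miR390, the leading member MIR390-1 had 1517, 2055 and 1477 CPM in sL2 and 1726, 1388 and 1584 CPM in sL1, with overlap, and a minor member, MIR390-4, rose (log2 fold change 1.83, SE 0.51, edgeR adjusted p = 0.0101).

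**Figure D3:**
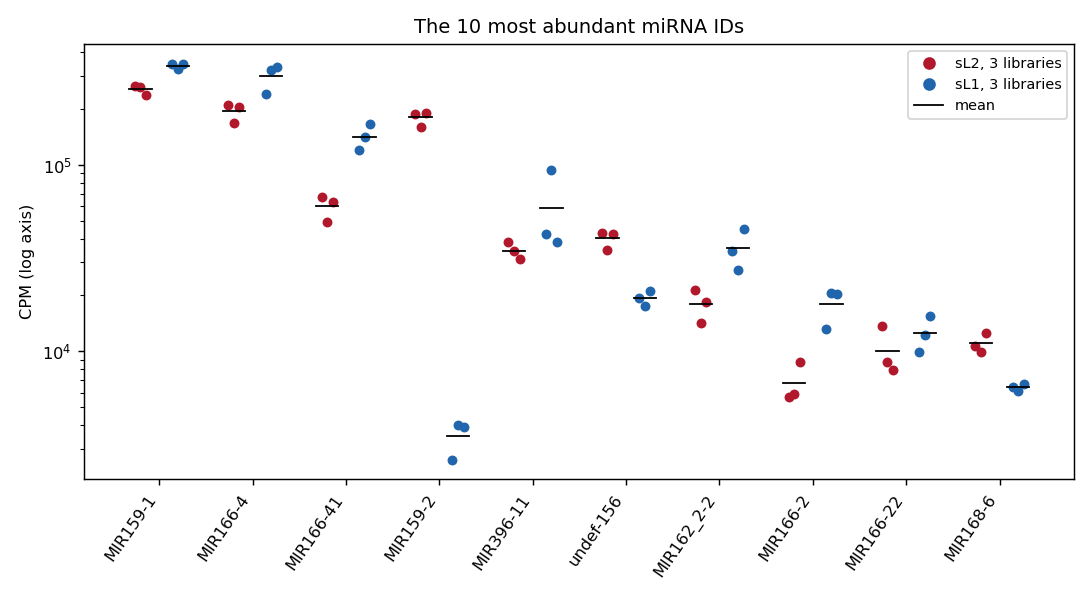
The 10 most abundant miRNA IDs over the leaf libraries (x axis), in CPM (y axis, logarithmic), in the 3 sL2 libraries (red) and the 3 sL1 libraries (blue), with the mean as a horizontal line. MIR159-2 lies at 159898 to 189750 CPM in sL2 against 2623 to 4019 CPM in sL1, the widest gap among these IDs, and MIR166-22 overlaps at 7898 to 13642 CPM in sL2 against 9964 to 15353 CPM in sL1.

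The miRNAs that act on the silencing machinery itself, miR162 on DCL1, miR168 on AGO1 and miR403 on AGO2 in Arabidopsis, had a single call. Of their 16 tested IDs, 1 rose and none fell (6.25% called, against 36.0% of all tested IDs). The median log2 fold change was -0.10, a sign that turned to 0.08 with scaling by library size alone. MIR162_2-2 had 21267, 14182 and 18375 CPM in sL2 and 34475, 27282 and 45153 CPM in sL1. It was lower in every sL2 library, by a log2 fold change of -0.99 (SE 0.19, edgeR adjusted p = 0.000953) that lay at the edge of the fold required. Leaving out 1 library moved it to between -1.31 without sL2 replicate 1 and -0.74 without sL1 replicate 3, and it passed that fold in 4 of these 6 fits. It also passed with the 5 most abundant IDs left out (-1.06), with filterByExpr (-1.09) and after the libraries were drawn down to 1 depth (-1.02). MIR168-6 had 10663, 9887 and 12535 CPM in sL2 and 6416, 6146 and 6692 CPM in sL1, higher in every sL2 library but under the fold required (log2 fold change 0.78, SE 0.18, edgeR adjusted p = 0.00286). MIR403-4 had 683, 1003 and 728 CPM in sL2 and 1089, 755 and 928 CPM in sL1, with overlap. The member that rose, MIR168-7, had 20, 13 and 25 counts in sL2 and 4, 7 and 2 counts in sL1, and its call (log2 fold change 1.49) held in 1 of the 6 fits that left out a library, the one without sL1 replicate 2 (1.82), with 1.29 to 1.61 in the others.

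The nutrient and copper families had 15 tested IDs, with 3 that rose and 2 that fell (33.3% called, against 36.0% of all tested IDs). The median log2 fold change was -0.69. All that rose were miR395, which in Arabidopsis targets mRNAs of sulfate assimilation and transport, and all that fell were miR399, which there targets PHO2 in the control of phosphate. MIR395-1 had 146, 112 and 88.0 CPM in sL2 and 36.1, 45.5 and 22.7 CPM in sL1 (log2 fold change 1.71, SE 0.47, edgeR adjusted p = 0.00917). MIR395-5, the most abundant member, had 2244, 1826 and 1383 CPM in sL2 and 493, 1157 and 360 CPM in sL1 (log2 fold change 1.44, SE 0.47, edgeR adjusted p = 0.0258). Neither overlapped, but the call of MIR395-5 was lost without sL1 replicate 1 (log2 fold change 1.26), sL1 replicate 3 (1.22) or sL2 replicate 1 (1.13), and the fold change was 2.07 without sL1 replicate 2. The summed counts of miR395 were 2609, 2277 and 1736 CPM in sL2 and 567, 1216 and 474 CPM in sL1, a log2 fold change of 1.55 (SE 0.47, edgeR adjusted p = 0.0181), and missed the threshold without sL2 replicate 1 (1.28) or sL1 replicate 1 (1.38).

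MIR399-2 had 1, 0 and 1 counts in sL2 and 6, 11 and 10 counts in sL1, and was 21.5-fold higher in sL1 with a 95% exact counting interval of 5.40 to 187 (edgeR adjusted p = 0.000541). MIR399-1 had 19.6, 4.53 and 17.0 CPM in sL2 and 28.8, 61.3 and 96.5 CPM in sL1, and its call (log2 fold change -2.15, edgeR adjusted p = 0.0326) was lost without sL2 replicate 2 (-1.82), sL2 replicate 3 (-2.33), sL1 replicate 2 (-2.17) or sL1 replicate 3 (-1.62). The miR399 sum fell by 1.79 on the log2 scale (SE 0.58, edgeR adjusted p = 0.0243) and missed the threshold without sL2 replicate 2 (-1.51) or sL1 replicate 3 (-1.41). The copper families varied widely between libraries of 1 leaf. MIR398_2-1 had 783, 630 and 2446 CPM in sL2 and 4291, 680 and 2094 CPM in sL1, and MIR408_2-1 had 279, 329 and 521 CPM in sL2 and 474, 283 and 131 CPM in sL1. Both overlapped and neither was called, although MIR398_2-1 passed without sL2 replicate 3 (log2 fold change -1.74, edgeR adjusted p = 0.0436).

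No member of miR858, which targets MYB mRNAs of the phenylpropanoid pathway in Arabidopsis and so bears on the flavonoids tea is known for, was called. MIR858-4 had 5919, 2032 and 3051 CPM in sL2 and 4565, 2942 and 4433 CPM in sL1, and its log2 fold change of -0.12 had an SE of 0.34. None of the 7 tested IDs of miR482, which targets disease resistance mRNAs of the NBS-LRR type in several dicots, were called either. MIR482-14 had 5412, 6331 and 6373 CPM in sL2 and 7193, 7944 and 6590 CPM in sL1, without overlap, a log2 fold change of -0.26 (SE 0.16, edgeR adjusted p = 0.210).

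Of families outside those lists, MIR477-2 rose, with 193, 125 and 168 CPM in sL2 and 14.4, 13.8 and 31.2 CPM in sL1 (log2 fold change 3.05, SE 0.71, edgeR adjusted p = 0.00318). MIR6149-1 fell, with 2747, 1495 and 1785 CPM in sL2 and 6301, 4320 and 7611 CPM in sL1 (log2 fold change -1.60, SE 0.28, edgeR adjusted p = 0.000351). MIR530-1 fell, with 21.1, 7.55 and 27.0 CPM in sL2 and 106, 55.4 and 70.9 CPM in sL1 (log2 fold change -2.04, SE 0.55, edgeR adjusted p = 0.00879). The libraries of the leaves did not overlap for any of the 3, as for 53.2% of all tested IDs. Among IDs that carry no family name, undef-156 was the most abundant, with 43194, 35031 and 42566 CPM in sL2 and 19359, 17396 and 21074 CPM in sL1. It was higher in every sL2 library (log2 fold change 1.06, SE 0.15, edgeR adjusted p = 4.08e-05) and dropped under the fold required without sL2 replicate 1 (0.84) or sL1 replicate 2 (0.98).

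Summed over their members, 10 of 34 tested families were called (29.4%), 3 higher and 7 lower in sL2. miR319 (log2 fold change 4.95), miR477 (2.82) and miR395 (1.55) rose. miR167 (-3.79), miR530 (-2.04), miR399 (-1.79), miR8762 (-1.75), miR394 (-1.69), miR6149 (-1.60) and miR172 (-1.59) fell. This balance depends on the scaling. Factors computed from the family sums, in place of those of the IDs, moved the log2 fold change of every family up, by 0.56 to 0.78 with a median of 0.68, and gave 9 families higher and 4 lower. miR319 (5.63), miR477 (3.47) and miR395 (2.25) were then joined by miR164 (1.5), miR2111 (1.40), miR1511 (1.36), miR168 (1.14), miR159 (1.11) and miR535 (1.04) above, while miR167 (-3.09), miR530 (-1.43), miR399 (-1.20) and miR394 (-1.01) stayed called below and miR6149 (-0.94), miR172 (-0.94) and miR8762 (-1.03) did not. miR319, miR477, miR167, miR530 and miR394 were called under each of the 15 alternatives run on the sums, whereas miR8762, a family of 1 tested ID with 5, 9 and 2 counts in sL2 and 9, 17 and 9 counts in sL1, was called under 7 of them, with a log2 fold change of -2.42 without sL2 replicate 2. The 2 most abundant families, miR159 and miR166, had log2 fold changes of opposite sign, both smaller than the fold required with the factors of the IDs.

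**Figure D4:**
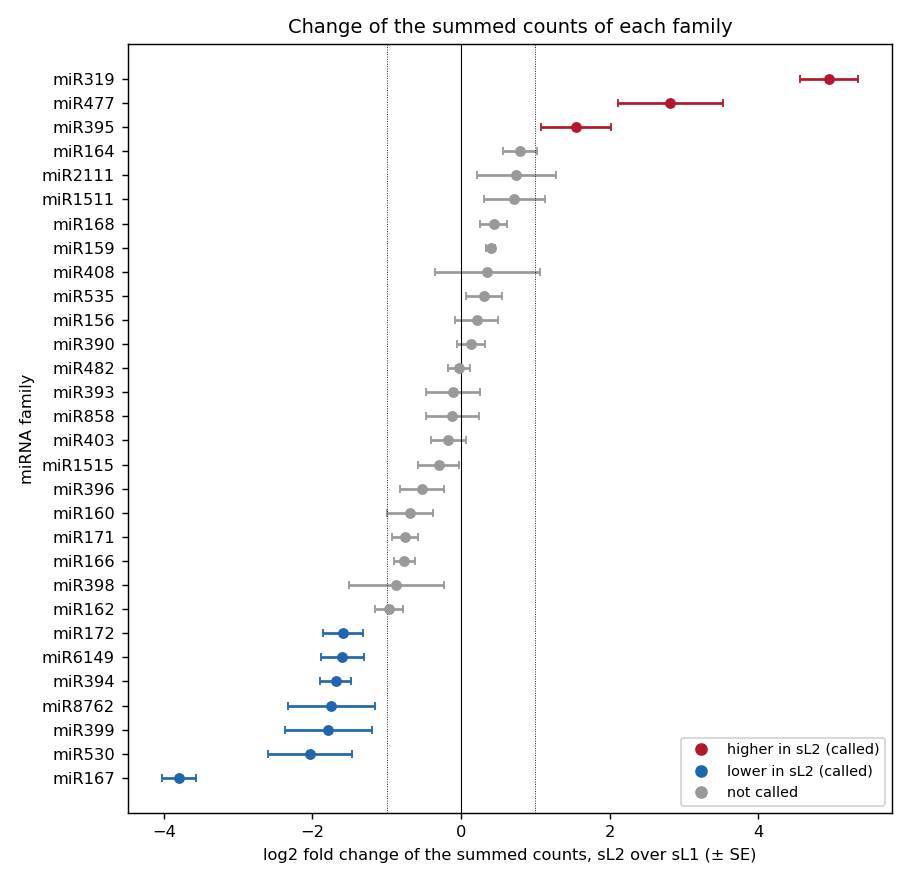
Log2 fold change of the summed counts of each family, sL2 over sL1, with its SE (x axis), for the 30 families with a mean of at least 10 CPM in 1 of the leaves (y axis). Red points are families called higher in sL2, blue points families called lower in sL2, grey points families not called, and dotted lines a log2 fold change of 1 in either direction. miR319 stands at 4.95 and miR167 at -3.79, and all other families lie between them.

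Whether members of a family changed by different amounts was tested directly, with edgeR's diffSpliceDGE run on members within families. The change of a family in this test is that of its summed counts, so 1 leading member can set it. The test pools the residual spread over all members of a family, which come from the same libraries. Its p-values can therefore overstate the evidence from 3 libraries per leaf. Several departures were lost with the leaves fitted alone. Members differed in their change in 12 of 26 families (46.2%), and 47 of 197 members departed from their family (23.9%) at a Benjamini-Hochberg adjusted p below 0.05. The miR159 family had 15 departing members, 11 of them above the family, with MIR159-2 above it by 5.28 on the log2 scale (edgeR adjusted p = 9.65e-34). In miR171, 8 of the 12 members departed, 3 above and 5 below, with MIR171_2-2 above the family by 4.70 (edgeR adjusted p = 3.74e-12). In miR172, MIR172-12 stood above by 6.68 (edgeR adjusted p = 3.38e-10), and by 5.94 without sL1 replicate 1 and 7.54 without sL1 replicate 2. MIR172-2 stood below the family, at -3.53 (edgeR adjusted p = 2.17e-07), and at -4.13 without sL2 replicate 3. Within miR167, MIR167_2-2 lay below the already lower family, at -2.86 (edgeR adjusted p = 1.76e-08), and MIR167_2-1 above it by 1.37 (edgeR adjusted p = 0.00441), a departure that was lost with the leaves fitted alone (edgeR adjusted p = 0.113) or without sL1 replicate 3 (edgeR adjusted p = 0.0536). In miR396, whose sum is mainly MIR396-11, 5 members lay above and none below, MIR396-21 by 3.61 (edgeR adjusted p = 9.44e-07). MIR396-19 lay above by 5.37, and by 2.56 without sL2 replicate 2. No member departed in miR319, miR395, miR399, miR160, miR168 or miR482, which does not show that their members changed alike.

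**Figure D5:**
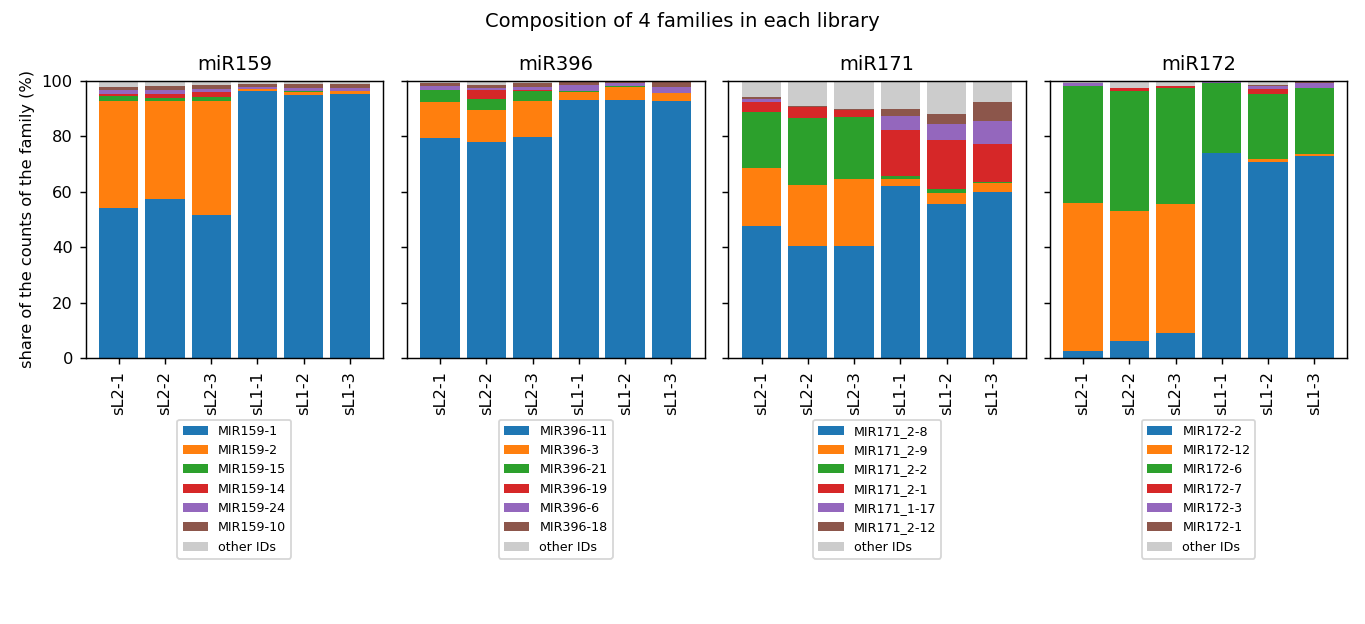
Share of each member in the counts of its family (y axis, percent) in each sL2 and sL1 library (x axis) for miR159, miR396, miR171 and miR172, with the 6 members that reach the highest shares in colour and all others in grey. MIR159-2 takes 35.1% to 41.2% of miR159 in sL2 and 0.731% to 1.17% in sL1, and MIR172-2 takes 2.54% to 8.92% of miR172 in sL2 and 70.9% to 74.0% in sL1.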

How the data were processed

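Small RNAs of buds, stems and the leaves just below the bud were sequenced by the authors on an Illumina platform, in 3 libraries per tissue. According to the methods of the study, adaptors and low-quality reads were removed, reads of other known ncRNAs were set aside, and the rest were aligned to plant miRNAs of miRBase with a few mismatches allowed. The values deposited by the authors are raw counts of reads per miRNA ID, not normalized. The labels name a library kit for mRNA, while the methods describe small RNA libraries.

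All 12 libraries entered 1 quasi-likelihood model of edgeR 4.0.16 (R 4.3.3), with TMM normalization and the tissue as the only term, over IDs with at least 10 counts in all. Family sums were tested in the same way with the TMM factors of the ID table, a choice made after the factors of the sums had been seen, and members within families with diffSpliceDGE. A level of 0 in all libraries of a tissue was set against 3 counts per library. Intervals at 95% and these floors cover counting error only, and reads are not independent molecules. A permutation of 3 libraries against 3 cannot give a two-sided p below 0.1, so none was used. The replicates were described as biological, and the p-values measure the spread between these libraries. Those of diffSpliceDGE pool that spread over the members of a family.

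The members, lists and tests were chosen with earlier results of these data known. Named IDs were those the study singles out, in each direction the 5 largest called changes without overlap and with a mean of 10 counts or more in the leaf with the higher level, the 10 most abundant IDs, and the most abundant ID of each listed family. The following were named after their values were seen: MIR159-14, MIR159-15, MIR159-16, MIR159-21, MIR159-24, MIR159-28, MIR159-29, MIR159-37, MIR159-47, MIR164-2, MIR164-5, MIR164_2-4, MIR166-32, MIR167_1-8, MIR167_2-1, MIR167_2-7, MIR168-7, MIR171_1-6, MIR171_1-17, MIR171_2-1, MIR171_2-2, MIR171_2-9, MIR171_2-14, MIR172-12, MIR319-5, MIR319-6, MIR319-7, MIR390-4, MIR394-2, MIR395-1, MIR396-3, MIR396-12, MIR396-13, MIR396-19, MIR396-21, MIR399-2, MIR477-2, MIR530-1, MIR535-1 and MIR6149-1. Alternatives used DESeq2 1.42.0, limma 3.58.1 (voom), other scalings and filters, and leaving out each library. Predicted miRNAs, the transcriptome and target genes were not analysed here.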

Additional observations from a re-analysis of the deposited data

How the results depend on the processing

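The number of called IDs, 80 as reported, was 77 with DESeq2, 84 with limma-voom, 82 with RLE size factors, 83 with scaling by library size alone, 77 without the 5 most abundant IDs, 74 without the filter, 70 with edgeR's filterByExpr, 90 with unadjusted p-values, 92 with the adjusted p alone, 80 with the sL2 and sL1 libraries fitted alone and 75 after the deeper libraries were drawn down to the total of the shallowest. Without 1 library it ranged from 68 to 79, with 33 to 41 IDs higher and 32 to 41 lower in sL2. The median log2 fold change of the tested IDs was -0.11, and 0.04 with scaling by library size alone, so a change about as small as that shift depends on the scaling. Larger changes can depend on it too, since factors computed from the family sums moved those sums by a median of 0.68. These factors were not applied to the IDs. Whether called falls near the fold required, such as MIR166-41 (-1.24) and MIR171_2-8 (-1.24), would hold under them was not tested. The called families, 10 as reported, numbered 8 to 10 without 1 library, 9 to 12 under the other alternatives and 13, 9 higher and 4 lower against 3 higher and 7 lower as reported, with scaling factors computed from the family sums, an alternative chosen after seeing the data that moved all 34 families up by a median of 0.68 on the log2 scale. Members that departed from their family, 47 as reported, numbered 39 to 48. Over 44 named IDs and 18 settings, 753 of 784 values stayed on their side of the threshold, 20 newly passed it and 11 no longer passed it. No called value changed sign, while the uncalled values of MIR162_1-2, MIR169_1-2, MIR390-1 and MIR858-4, all close to 0, did so in some settings. Libraries with the same replicate number did not deviate together (correlations of -0.07, 0.06 and 0.00). With 3 libraries per tissue, these values cannot exclude that the numbers pair the samples. With a replicate block, 78 IDs, 10 families and 48 departing members were called, and all 78 IDs were also called without the block. For 27 IDs, at most 3 counts in every leaf library left no fold change to report.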

Other observations

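The miRNAs that differed between the leaves had the following levels in the other tissues of the shoot, given as means of 3 libraries with no test. MIR159-2 averaged 179078 CPM in sL2, 3515 CPM in sL1, 30502 CPM in buds and 4378 CPM in stems. MIR319-1 averaged 859 CPM in sL2, 31.5 CPM in sL1, 304 CPM in buds and 51.9 CPM in stems. For both, the bud lay between the leaves and the stem near sL1. The study, in contrast, reported csn-miR159-2 as lower in buds than in either leaf. MIR167_2-2 averaged 80.1 CPM in sL2, 8059 CPM in sL1, 5243 CPM in buds and 8543 CPM in stems, so that sL2 alone was low. MIR396-21 averaged 1715 CPM in sL2, 200 CPM in sL1, 43.7 CPM in buds and 328 CPM in stems. MIR156-14 averaged 42.5 CPM in sL2, 1.60 CPM in sL1 and 96.8 CPM in buds, and was not counted in any stem library. MIR172-2 averaged 10.7 CPM in sL2, 385 CPM in sL1, 384 CPM in buds and 229 CPM in stems.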
